A study of Mus musculus with 5 samples.

Results

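The miR-30 family was followed through wound healing in aged mouse skin. It was represented by 5 guide probes, mmu-miR-30a-5p, mmu-miR-30b-5p, mmu-miR-30c-5p, mmu-miR-30d-5p and mmu-miR-30e-5p, and 4 passenger probes, mmu-miR-30a-3p, mmu-miR-30c-1-3p, mmu-miR-30c-2-3p and mmu-miR-30e-3p (the prefix mmu, for mouse, is left out below). They are 9 of the 1900 mouse miRNA probes on each array. The members were chosen by name, but with earlier results of these arrays known, the high D3 level of miR-30c-1-3p among them, so the ratios below are a description and support no test. Total RNA of female back skin was hybridised on 5 single-colour arrays, 1 for each condition. Unwounded skin (D0) and skin on days 3, 5 and 7 after wounding (D3, D5 and D7) came from 2-year-old mice, and a further array held unwounded skin of 8-week-old mice. Per the methods, the mice were in telogen, the resting phase of the hair cycle, and the wounds were full-thickness punch wounds of 3 mm in diameter. Neither the strain nor the number of mice behind each array is in the labels. With 1 array for each condition there is no replicate and no p-value, and how few the arrays are limits the precision.

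A microRNA (miRNA) is cut from a hairpin precursor, from which a duplex of 2 short strands is released. The guide strand is usually loaded into an Argonaute protein and directs it to mRNAs that pair with its seed, the bases 2 to 8 from the 5′ end, which lowers their translation and stability. The passenger strand is usually degraded, although some passenger strands are loaded too and then have a seed, and so a target set, of their own. In the miR-30 family the -5p arm is the usual guide. The family is widely expressed and is known for targets in epithelial to mesenchymal transition and in autophagy.

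The sequences are shown because the family divides by its seeds, and its members are described below in that order. The seed is in capitals, and the sequences are those given for the probes in the array files. For 7 of the 9 members the same mature sequence was found in RefSeq, and entries for miR-30b and miR-30d were not used here. The 5 guide arms have 1 seed, GUAAACA:

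miR-30a-5p: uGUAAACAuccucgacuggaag

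miR-30b-5p: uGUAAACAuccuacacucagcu

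miR-30c-5p: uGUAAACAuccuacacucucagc

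miR-30d-5p: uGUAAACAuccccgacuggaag

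miR-30e-5p: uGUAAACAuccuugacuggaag

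The passenger arms have 2 other seeds, UUUCAGU in miR-30a-3p and miR-30e-3p and UGGGAGA in both miR-30c passengers:

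miR-30a-3p: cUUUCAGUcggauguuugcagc

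miR-30e-3p: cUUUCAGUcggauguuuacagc

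miR-30c-1-3p: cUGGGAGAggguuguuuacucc

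miR-30c-2-3p: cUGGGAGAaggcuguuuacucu

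Some members are close in sequence, so that probes may share signal. Of 22 positions, miR-30a-3p and miR-30e-3p were identical at 21, and miR-30c-1-3p and miR-30c-2-3p at 19. Among the guides, miR-30a-5p was identical to miR-30d-5p at 21 positions and to miR-30e-5p also at 21. How far each probe binds its relatives was not tested.

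The hairpins of miR-30c are shown because its arms come from more than 1 gene. The mature miR-30c-5p is the same in 2 genes, Mir30c-1 and Mir30c-2, and its probe reads both, whereas their -3p arms differ and have a probe each. Both precursors are shown with the -5p and -3p arms in capitals, as written in RefSeq for GRCm38.p6:

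Mir30c-1, chr4:120769534-120769622, minus strand: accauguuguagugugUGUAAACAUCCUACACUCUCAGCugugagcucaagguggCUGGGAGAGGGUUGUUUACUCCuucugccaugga

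Mir30c-2, chr1:23291701-23291784, plus strand: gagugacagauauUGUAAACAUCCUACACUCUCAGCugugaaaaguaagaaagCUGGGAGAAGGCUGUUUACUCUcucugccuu

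Each of these genes has a family neighbour on the same chromosome. Mir30e, at chr4:120772606-120772697 on the minus strand, starts 3072 bases from Mir30c-1, and both lie within the span of Nfyc, which encodes a subunit of the transcription factor NF-Y. The gene table used does not say whether they lie in its exons or introns. Mir30a, at chr1:23272269-23272339 on the plus strand, starts 19432 bases from Mir30c-2. Mir30b and Mir30d neighbour each other on chromosome 15.

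A probe was called detected when the mean of its 2 spots exceeded the 95th percentile of the array's 4 empty spots, and bright when it exceeded 2 times this detection level. The detection level was 58.3 on the D3 array and 61.1 on the D5 array, and 99.0 to 107 on the other 3. All 5 guides were bright on all 5 arrays. The members detected were 8 at aged D0, where miR-30c-2-3p was not, and 9 on each of the other arrays. Scanned intensities are given below as deposited, before any normalization, on a linear scale, and ratios are of levels after background correction and quantile normalization over the 5 arrays. Apart from sums over marker lists, levels of different probes are not set against each other, since probes differ in how well they bind.

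The guide arms had their lowest intensities at D3 and D5. The medians over all miRNA spots were also lower on these 2 arrays, at 68.5 and 62.9 against 97.4 at aged D0. Most of these spots are dim, and the aged D0 median lay below its detection level of 105. The bright miRNAs differed less, with median ratios to D0 of 0.954 at D3 and 0.910 at D5 without normalization. For miR-30a-5p, the scanned intensity of aged skin was 2958 before wounding, 1489 on D3, 1689 on D5 and 3561 on D7, and that of young unwounded skin was 7364. For miR-30b-5p the same arrays gave 3681, 2023, 1283, 4427 and 9831. All guides were brightest in young unwounded skin, whose array was also brighter for most other bright miRNAs. For miR-30c-5p the intensity was 4693 before wounding, 1580 on D3, 1508 on D5 and 4332 on D7, and 9413 in young skin. For miR-30d-5p it was 1779, 1259, 1578, 2673 and 4979 in that order, and for miR-30e-5p it was 1040, 645, 583, 1932 and 4296. D3 was the lowest of the 5 arrays for miR-30a-5p and miR-30d-5p, and D5 was the lowest for miR-30b-5p, miR-30c-5p and miR-30e-5p.

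**Figure D1:**
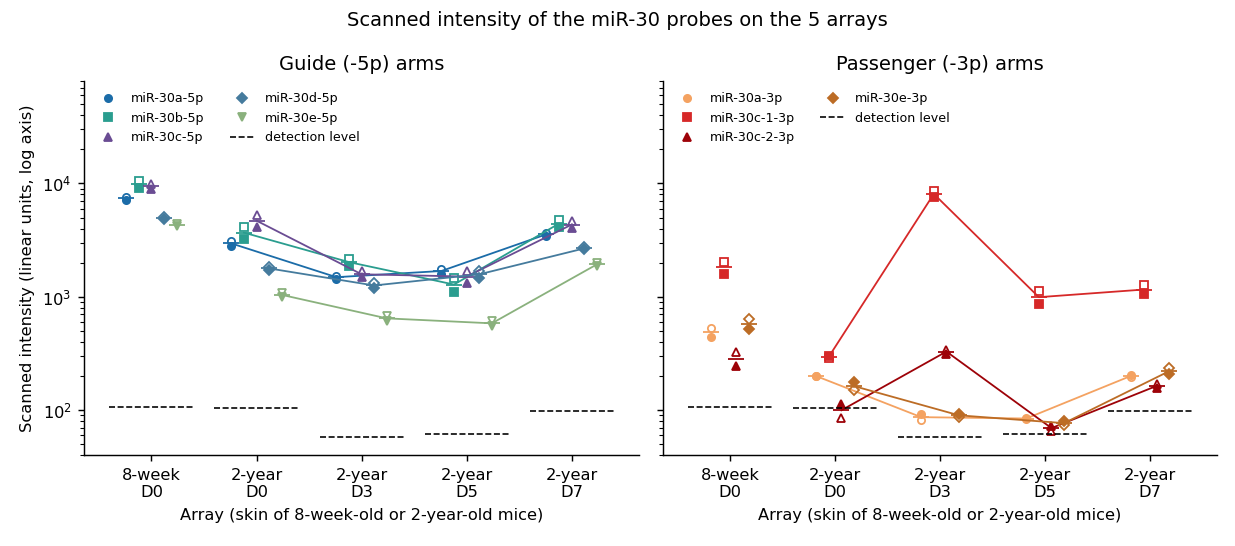
Scanned intensity (log axis) of the 5 guide arms on the left and the 4 passenger arms on the right, on the 5 arrays. Filled and open symbols are the 2 spots of a probe, short bars their mean, lines join the arrays of 2-year-old skin and dashed lines mark the detection level. The guides dip at D3 and D5, and miR-30c-1-3p stands at 8079 at D3 against 295 at D0.

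After normalization all 5 guides were lower at D3 than at D0. The D3/D0 ratio was 0.437 for miR-30c-5p, 0.611 for miR-30a-5p, 0.631 for miR-30e-5p, 0.701 for miR-30b-5p and 0.855 for miR-30d-5p, with a median of 0.631. The median over the 345 miRNAs that were bright on at least 1 of these 2 arrays was 0.967. All 5 guides lay below the median of the bright miRNAs in each of 16 ways of processing, although miR-30d-5p itself was above 1 in 2 of them, under cyclic loess and in the authors' processed values (1.05). Several of the 16 only rescale a whole array, which cannot move a miRNA against that median, so they are not 16 separate checks. In bulk skin, fewer cells that carry a miRNA and less of it in each cell cannot be told apart.

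The guides differed among themselves at D3. The gap between miR-30c-5p and the next guide, miR-30a-5p, was 0.48 on the log2 scale, and the gap between miR-30b-5p and miR-30d-5p was 0.29. Both were larger than the SD that repeat spots give a difference of 2 ratios, 0.25, which covers the spread within an array only. The gaps between miR-30a-5p, miR-30e-5p and miR-30b-5p were smaller than it, at 0.05 and 0.15. Thus, in this processing, miR-30c-5p was the lowest guide and miR-30d-5p the nearest to its D0 level, with the other 3 in no clear order. The gap of 0.29 was little above the SD of 0.25. The place of miR-30d-5p was less distinct without normalization, where it was at 0.708 and the next guide, miR-30e-5p, at 0.622. Scalings that only rescale a whole array leave the gap between these 2 guides as it was without normalization.

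At D5 the guides spread further apart. The D5/D0 ratio was 0.521 for miR-30c-5p, 0.553 for miR-30b-5p, 0.687 for miR-30e-5p, 0.906 for miR-30a-5p and 1.38 for miR-30d-5p. The median of the 5 was 0.687, against 1.07 over 296 bright miRNAs. The step from miR-30a-5p to miR-30d-5p, 0.61 on the log2 scale, was larger than the 0.21 from repeat spots, although the 2 sequences differ at 1 position. The direction of miR-30d-5p against D0 was not settled, since it was above 1 in 12 of the 16 ways of processing and below 1 in 4. The genes of miR-30b and miR-30d are neighbours, yet between D3 and D5 miR-30d-5p was 1.62 times higher and miR-30b-5p 1.27 times lower.

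By D7 the guides were back near their D0 level. The D7/D0 ratios ran from 0.850 for miR-30c-5p to 1.27 for miR-30e-5p, with 1.03 for miR-30a-5p, 1.10 for miR-30b-5p and 1.25 for miR-30d-5p between them. No step between neighbours in this order was larger than the 0.38 on the log2 scale that repeat spots gave for D7/D0. The median of the guides was 1.10 against 1.02 over 309 bright miRNAs, and it was below 1, at 0.751, when arrays were scaled to a 75th percentile taken over miRNAs detected on each of them.

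In unwounded skin the guides of aged and young mice were not separated in a stable way. The ratio of aged to young D0 was 0.643 for miR-30e-5p, 0.834 for miR-30b-5p, 0.878 for miR-30d-5p, 1.08 for miR-30a-5p and 1.11 for miR-30c-5p. With no normalization all 5 were lower in aged skin, with scanned ratios between 0.242 and 0.499, and the median of the bright miRNAs was then 0.456. The same 75th percentile scaling turned the guides' median from 0.878 to 1.24. Of the guides, miR-30e-5p alone was below 1 in all 16 ways of processing, with a range of 0.218 to 0.808.

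**Figure D2:**
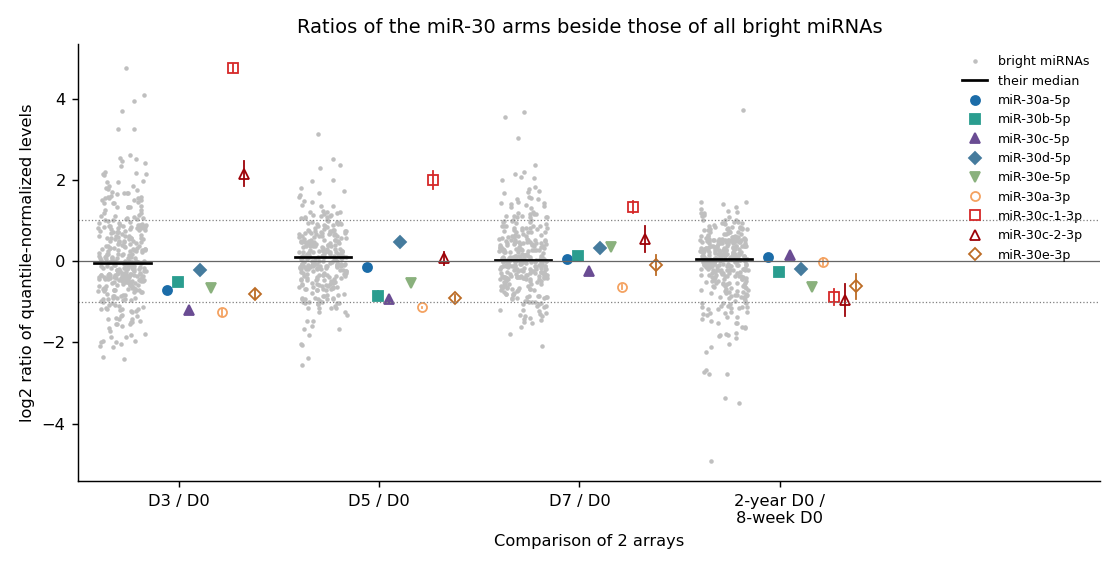
log2 ratio of quantile-normalized levels in the 4 comparisons of 2 arrays. Grey points are all bright miRNAs with their median as a black bar, symbols are the miR-30 arms (guides filled, passengers open) with a line between the ratios of their 2 spots, and dotted lines mark 2-fold. The 5 guides lie below the grey median at D3, and miR-30c-1-3p lies at 4.76. Plain ratios are drawn, also for miR-30c-2-3p, which was not detected at aged D0.

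Of the passengers, the pair with the seed UUUCAGU followed the guides. For miR-30a-3p the scanned intensity of aged skin was 199.9 before wounding, 86.8 on D3, 84.4 on D5 and 201 on D7, and it was 487 in young skin. For miR-30e-3p it was 163, 90.0, 76.9, 221 and 578. Both were low at D3 and D5 and were bright only at D7 and in young skin. At D0, D3 and D5 they lay above the detection level by less than 2 times, where the offset of the background correction pulls ratios towards 1.

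The ratios of this pair were below 1 on all 3 days. For miR-30a-3p the ratio to D0 was 0.419 at D3, 0.454 at D5 and 0.641 at D7. For miR-30e-3p it was 0.571, 0.534 and 0.930. At D3 and D5 both were below 1 in all 16 ways of processing. At D7, miR-30e-3p was above 1 in 6 of them and miR-30a-3p in 1. The aged to young ratio was 0.989 for miR-30a-3p and 0.648 for miR-30e-3p.

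The passengers with the seed UGGGAGA went the other way at D3. For miR-30c-1-3p the scanned intensity of aged skin was 295 before wounding, 8079 on D3, 992 on D5 and 1159 on D7, and it was 1816 in young unwounded skin. Its 2 spots gave 300 and 291 at D0 and 7595 and 8564 at D3. D3 was thus the highest of the 5 arrays on both spots and aged D0 the lowest, with the others between them.

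The D3/D0 ratio of miR-30c-1-3p was 27.1, with 25.4 from the first spots and 28.9 from the second. Among the other 328 bright miRNAs that were detected on both arrays, none had a larger ratio in any of the 16 ways of processing. Those that only rescale a whole array cannot change this rank. A further 16 bright miRNAs were not detected on 1 of the 2 arrays, so their ratios are bounds and they are left out of that rank. With plain ratios over all bright miRNAs, none was larger in 14 of the 16 ways of processing, and at most 4 were. The ratio of miR-30c-1-3p ran from 17.8, with scaling to the spike calibration controls, to 47.8, with the authors' processed values. Against young unwounded skin the D3 level was 14.7 times higher.

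Most of this was gone by D5. The level of miR-30c-1-3p was 6.80 times lower at D5 than at D3, and a further 1.58 times lower at D7. It was still above its own D0 level, by 3.98 times at D5, where 4 of the 288 others detected on both arrays had a larger ratio, and by 2.51 times at D7, where 17 of 295 did. With plain ratios over all bright miRNAs, 4 had a larger ratio at D5 and 24 at D7. The D5 and D7 ratios of miR-30c-1-3p were above 1 in all 16 ways of processing, with ranges of 2.53 to 5.42 and 2.28 to 4.58. Against young skin, the D7 level was 1.36 times higher.

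Before wounding, miR-30c-1-3p was lower in aged than in young skin, with a ratio of 0.542 and with 0.619 and 0.474 from its 2 spots. This ratio was below 1 in all 16 ways of processing, from 0.148 to 0.619. The aged D0 array is the denominator of every D3, D5 and D7 ratio above, so they share its error.

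The near relative miR-30c-2-3p had its highest intensity at D3 too. In aged skin it was scanned at 99.8 before wounding, below the detection level of 105, and then at 329 on D3, 69.5 on D5 and 164 on D7. In young skin it was scanned at 286. Because it was not detected at aged D0, its ratios are bounds. After quantile normalization the bounds were 4.27-fold higher at D3 than at D0, 1.40-fold higher at D7, and 1.86-fold lower in aged than in young unwounded skin. They hold for the mean of the 2 spots in this processing only. The plain ratios of the first and second spots were 3.58 and 5.52 at D3, and 1.16 and 1.83 at D7. For aged over young skin they were 0.676 and 0.394. Taken as a plain ratio, D3/D0 ran from 2.19 to 34.6 over the 16 ways of processing, so its side of 1 held but its size did not. The plain ratio was below 1 in 1 of the 16 at D7 (0.920) and above 1 in 1 for aged over young skin (1.19). At D5 the bound was 1.01 and the plain ratio was below 1 in 6 of the 16, down to 0.597, so no direction is given. From D3 to D5 its level was 4.24 times lower.

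The spots of miR-30c-1-3p and miR-30c-2-3p lie next to each other on the array. Among the other 14 spots that adjoin those of miR-30c-1-3p, the scanned D3/D0 ratio ran from 0.525 to 1.61 with a median of 0.873, against 0.739 over all miRNA spots. The scanned ratio of miR-30c-2-3p was 3.30, above that range. Whether its signal includes miR-30c-1-3p, from the neighbouring spot or from the shared bases, was not tested.

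At D3 then, 2 members, the miR-30c passengers, were at least 2-fold higher than at D0, and 2, miR-30c-5p and miR-30a-3p, at least 2-fold lower. Of the 345 bright miRNAs, 16.8% passed 2-fold upwards and 12.8% downwards, and 7 of the members, all but miR-30a-3p and miR-30e-3p, are among these 345. The call of miR-30a-3p was lost with offset 100 (0.513), with the 75th percentile of all probes (0.572) and with the median (0.611), and its ratio was 0.166 in the authors' values. The call of miR-30c-5p was lost with cyclic loess (0.507) and in the authors' values (0.541). At D5, miR-30c-1-3p was higher and miR-30a-3p lower, where 9.8% and 8.45% of 296 bright miRNAs were, a set that holds 6 of the members and not miR-30a-3p. The D5 call of miR-30a-3p was lost in 5 of the 16 ways of processing. At D7, miR-30c-1-3p was higher and no member lower, with 11.7% and 8.09% of 309. In aged against young unwounded skin no member passed 2-fold in either direction, with 4.72% higher and 12.1% lower among 339.

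The 2 arms of miR-30c lay further apart at D3 than those of the other precursors whose arms were both bright and detected. Of 775 pairs of arms on the array, the miR-30c guide being in a pair with each of its passengers, 23 had both arms bright at D0 or D3 and detected on both arrays, and the median fold between the D3/D0 ratios of their arms was 1.5. For miR-30c-1-3p over miR-30c-5p it was 61.9-fold, the largest of the 23, and it ran from 54.2 to 88.4 over the 16 ways of processing. A rescaling of whole arrays leaves the fold between arms unchanged. The next largest was 6.09-fold. Because miR-30c-2-3p was not detected at D0, its pair is not ranked. By contrast, the arms of miR-30a were 1.46-fold apart and those of miR-30e 1.11-fold, both with the passenger lower and not bright on either array.

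**Figure D3:**
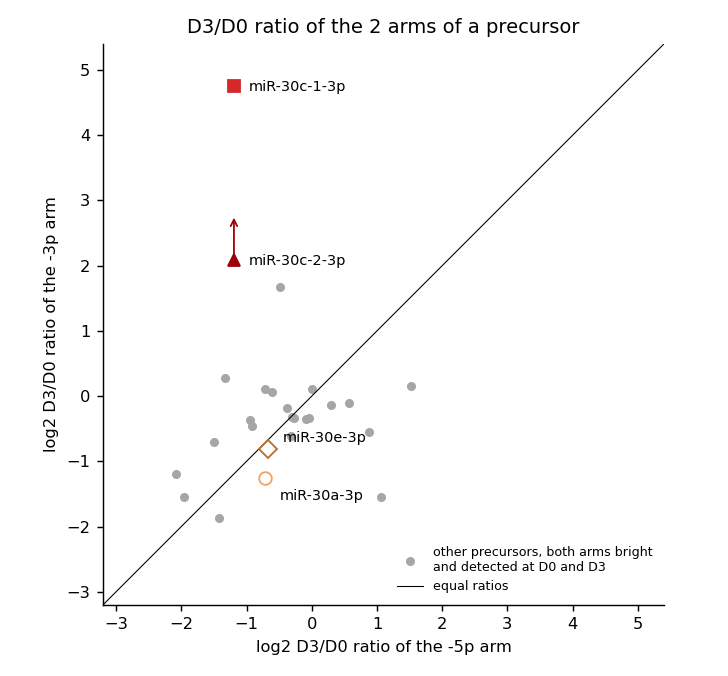
log2 D3/D0 ratio of the -3p arm against that of the -5p arm of the same precursor, with equal ratios on the line. Grey points are other precursors with both arms bright and detected on both arrays, filled coloured symbols are miR-30c arms and open symbols are miR-30 passengers that were not bright. The point of miR-30c-1-3p lies 5.95 above the line, and miR-30c-2-3p, not detected at D0, is drawn at its lower bound with an arrow.

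On the other arrays the arms of miR-30c lay closer. At D5 the difference between miR-30c-1-3p and miR-30c-5p was 7.64-fold, still the largest of 21 pairs. At D7 it was 2.95-fold, and 4 of 23 such pairs, miR-133b, miR-6965, miR-486a and miR-346, were further apart. In aged against young unwounded skin it was turned, with the guide 2.05-fold above the passenger, and 6 of 27 such pairs were further apart. The passenger was thus above the guide in its ratios to aged D0 and below it in the ratio of aged to young skin, in all 16 ways of processing. Again, those that only rescale a whole array could not have differed here.

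The passengers of neighbouring genes did not share a course, whereas their guides were all below 1 at D3. Mir30c-1 and Mir30e neighbour each other on chromosome 4, and at D3 miR-30c-1-3p was at 27.1 times its D0 level while miR-30e-5p was at 0.631 and miR-30e-3p at 0.571. Mir30a and Mir30c-2 neighbour each other on chromosome 1. There miR-30c-2-3p had a bound of 4.27-fold higher in this processing, and miR-30a-5p and miR-30a-3p were at 0.611 and 0.419. The guide miR-30c-5p, which both miR-30c genes encode, was at 0.437 and so below 1 like miR-30e-5p and miR-30a-5p. These are levels of mature strands, and the precursors were not measured.

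Probes outside the 9 members that share a seed or a name with them were dim. The seed of the guides is also that of miR-384-5p, which was detected on 1 array, and the seed of the miR-30c passengers is also that of miR-6958-5p, which was detected on 3. The other miR-30 probes, miR-30b-3p, miR-30d-3p and miR-30f, were detected on 3, 2 and 4 arrays. The brightest value among them was 304 for miR-30f in young skin. Mir30f has the same span as Mir30e on the opposite strand. At D3 these 3 probes had bounds of 1.0, so no change from D0 can be given for them.

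The profile of miR-30c-1-3p was compared with those of the 390 other miRNAs that were bright on at least 1 array, by the root mean square (RMS) difference of centred log2 levels over the 5 arrays. The 5 nearest were miR-711, at 0.27, miR-665-3p, miR-6931-5p, miR-762 and miR-7221-3p, the last at 0.73. The first, not detected at D0, had a bound of 15.5-fold higher at D3 in this processing. The D3/D0 ratios of the other 4 were 9.58, 13.0, 9.58 and 5.79. The members were not candidates for this list, and of them miR-30c-2-3p lay at 1.06 and miR-30e-3p at 2.04. The arrays behind this likeness are the same 5 for all probes, and so is their scaling.

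The guides' mean profile was nearest to miR-27b-3p, at an RMS difference of 0.08, followed by miR-99a-5p at 0.09 and by miR-146a-5p, miR-28c and miR-182-5p. These were chosen from the 193 miRNAs outside the members that were bright on all 5 arrays. Each of the 5 lay nearer to that mean than the single guides did, which lay between 0.17 for miR-30a-5p and 0.32 for miR-30d-5p. The D3/D0 ratios of miR-27b-3p and miR-99a-5p were 0.559 and 0.547.

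Base composition moved with the ratios of the bright miRNAs at D3. There the bright miRNAs in the lowest quartile of GC content had a median ratio of 0.792 and those in the highest 1.51. At D7 the order was turned, with 1.19 and 1.03. The 5 nearest profiles to miR-30c-1-3p had 63.6% to 81.8% GC. The GC content of miR-30c-1-3p is 54.5%, and among the 91 bright miRNAs within 5 percentage points of it that were detected on both arrays the median D3/D0 ratio was 0.876 and none had a larger ratio. The guides have 40.9% to 50% GC, and the medians of miRNAs near them in GC were 0.730 to 0.806, above 4 of the 5 guides and below miR-30d-5p. The part of GC content in these ratios was not tested.

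Markers of the cell types in skin changed on the same arrays. All 7 epidermal miRNAs of the list, miR-203-3p, miR-205-5p and the miR-200 family, were detected on every array, and their summed normalized level was 37284 in aged skin before wounding, 21291 on D3, 29054 on D5, 24746 on D7 and 21400 in young skin. The order of the 2 ages was not stable, as the scanned epidermal sum was 38489 at aged D0 and 46538 in young skin. The median aged to young ratio of this list ran from 0.440 to 1.63, below 1 in 5 of the 16 ways of processing. Of 5 leukocyte miRNAs, 4 were detected at aged D0, where miR-142a-3p was not, and 5 elsewhere, with sums of 1088, 5328, 3688, 3707 and 2652. The normalized leukocyte sum was thus highest at D3 and lowest at aged D0, as was miR-30c-1-3p, whereas the sum of scanned intensities was 901, 4071, 2389, 4172 and 5829, highest in young skin and higher at D7 than at D3. The 4 skeletal muscle miRNAs were detected on every array and summed to 28504, 8817, 12087, 14435 and 32573, with a D3 low like that of the guides. The 3 erythroid miRNAs, 2 or 3 of them detected, summed to between 967 and 2412. Each sum is weighted to its brightest probes. At aged D0, miR-205-5p and miR-203-3p were scanned at 19978 and 11451 of the epidermal 38489. At D3, miR-223-3p was scanned at 2804 of the leukocyte 4071. No marker on these lists was at 0, and the part of changing cell types in the miR-30 levels was not tested.

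Within the lists the median D3/D0 ratio was 0.428 for epidermis and 0.298 for muscle, both below 1 in all 16 ways of processing. Of the 7 epidermal miRNAs, 6 were below 1 and miR-200c-3p went the other way, at 2.10, whereas all 4 of muscle were below 1. For the leukocyte miRNAs detected on both arrays it was 15.3 for miR-223-3p, a miRNA of neutrophils and other myeloid cells, 6.11 for miR-142a-5p, 1.84 for miR-155-5p and 0.743 for miR-150-5p. At D7 it was 8.14 for miR-223-3p and 4.39 for miR-142a-5p, against 2.51 for miR-30c-1-3p.

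Other widely expressed guide families served as a comparison. The 9 let-7 guides, miR-98-5p included, had a median D3/D0 ratio of 0.527, below 1 in all 16 ways of processing, with 4 of 9 at least 2-fold lower. The 3 miR-29 guides had 0.878, which was above 1 in 5 of the 16. The miR-30 guides, with 0.631 and 1 of 5 at least 2-fold lower, lay between them. At D5 the medians were 0.909 for let-7, 0.661 for miR-29 and 0.687 for miR-30, and at D7 they were 1.03, 1.21 and 1.10. Between aged and young unwounded skin the 3 families gave 0.923, 0.324 and 0.878, where only the median of miR-29 was below 1 in all 16. The 3 miR-29 guides were not alike there, with ratios from 0.283 to 1.18 and 2 of them at least 2-fold lower.

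**Figure D4:**
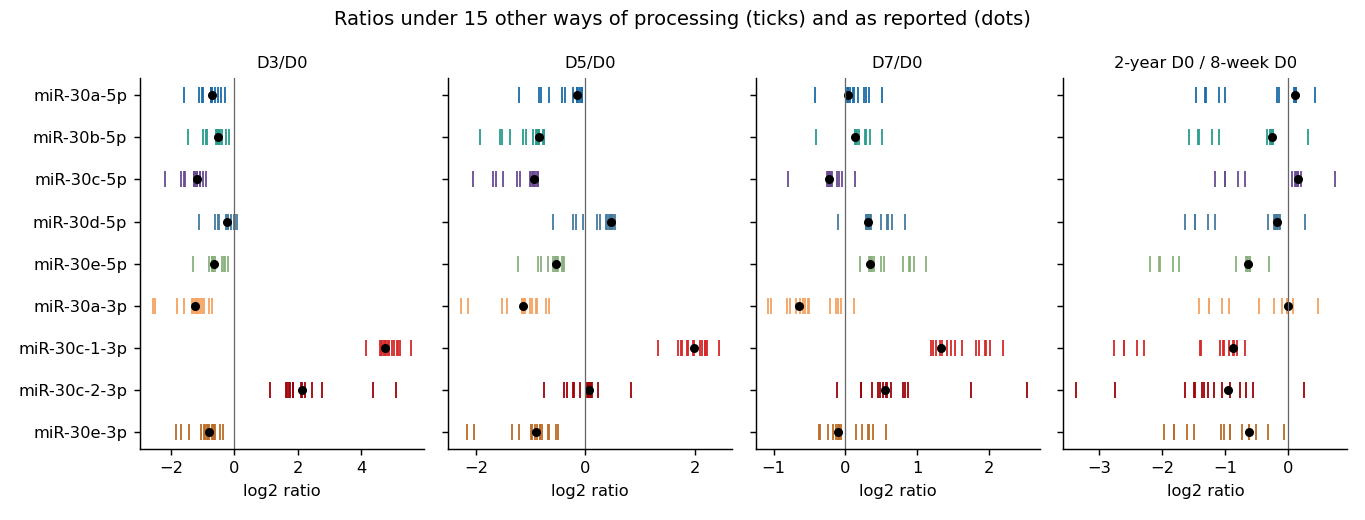
log2 ratio of each miR-30 arm in the 4 comparisons under 15 other ways of processing (coloured ticks) and as reported (black dots). The ticks of miR-30c-1-3p stay above 0 at D3, D5 and D7 and below 0 in aged against young unwounded skin, while those of all guides but miR-30e-5p lie on both sides of 0 at D7 and in the comparison of ages.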

How the data were processed

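RNA of 5 skin samples was labelled and hybridised by a service provider (LC Sciences). What the authors deposited is a scanned intensity per spot (linear, with empty background columns) and a table of processed intensity whose normalization is not given in the sources used here. Samples were grouped by age and day per the labels, and 0 columns belonged to unassigned samples. Wounds of young mice were not analysed here.

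Spots were background corrected by normexp (offset 50) fitted on the spot intensities alone, as the background columns are empty. Control spots were left out, log2 values were quantile normalized over the 5 arrays, and the 2 spots of a miRNA were averaged. Quantile normalization removes a change shared by most miRNAs, and the offset understates ratios of dim probes. A probe not detected on 1 of 2 arrays has a bound in place of a ratio, its brighter level divided by the higher of its own and the lowest detected level on the dimmer array. Ratios are linear, and the threshold was 2-fold. No test was run. The script was tested on simulated data.

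The members and lists were chosen with earlier results of these data known. Named were the members, other miR-30 probes, probes sharing a seed, the 5 nearest profiles to miR-30c-1-3p and to the guides' mean, arm pairs as far apart as those of miR-30c, marker lists, and the let-7 and miR-29 families. The 16 ways of processing comprise the one above and 15 others: 8 scalings between arrays, 4 background corrections, the authors' processed values (floor 1), and each spot alone. Counts were also made at 1.5-fold, at 3-fold and with 2 times the detection level. Sequences and coordinates are from RefSeq tables of GRCm38.p6. Normalization was run in limma 3.58.1 (R 4.3.3), and all else in Python 3.11.15 (numpy 2.4.6, pandas 2.3.3, matplotlib 3.10.9 for figures).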

Additional observations from a re-analysis of the deposited data

How the results depend on the processing

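No paired analysis was possible because only 1 array was made per condition, and no array could be left out for the same reason. No ratio past 2-fold changed direction in any alternative. The D3/D0 ratio of miR-30c-1-3p, 27.1, became 17.8 on the scale of the spike calibration controls, 35.6 with the 75th percentile of all probes, 38.0 with the median, 35.7 with cyclic loess, 31.7 with quantile normalization of the 2 arrays compared, 33.4 with subtraction of the empty spots and 47.8 with the authors' processed values. The cause of these moves was not tested.

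The members past 2-fold at D3, 4 in all, became 9 with the spike calibration controls, whose probes were 1.54 times brighter at D3 than at D0, 2 with detection at 2 times the level, 7 at 1.5-fold and 2 at 3-fold. It was 3, with 1 member lower, with the 75th percentile of all probes, the median, cyclic loess and offset 100, and 5, with 3 lower, with the 75th percentile over detected miRNAs, the 5S probes, offset 16 and subtraction. At D5 the 2 members became 4 without normalization and with the 5S probes, 7 with the spike calibration controls, 5 at 1.5-fold, and 1 with quantile normalization of the 2 arrays, with offset 100, with detection at 2 times the level and at 3-fold. They became 3, with 2 lower, with both 75th percentiles, the median, offset 16, subtraction, the authors' values and the first spot alone. At D7 the 1 member became 2 with the 5S probes and at 1.5-fold, 3 with subtraction and with the authors' values, and 0 at 3-fold. In aged against young unwounded skin the count of 0 became 9 without normalization, with the median and with the 5S probes, 8 with the 75th percentile of all probes, 6 with the spike calibration controls, 4 at 1.5-fold, 3 with the authors' values, 2 with cyclic loess, subtraction and the second spot alone, and 1 with offset 16 and with quantile normalization of the 2 arrays. In the last comparison all of these were lower in aged skin, and the cause was not tested. Signal over background limits miR-30a-3p, miR-30e-3p and miR-30c-2-3p, which were under 2 times the detection level on 3 of the 5 arrays each.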
